A study of Mus musculus with 7 samples.

Results

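Interferon-stimulated genes were followed here in mouse liver endothelium with and without the transcription factor c-Maf. The set held 49 genes, chosen by name: the OAS, IFIT, IFITM, MX and GBP families, single antiviral effectors, the interferon receptors, and the STAT, IRF and SOCS genes that carry and limit the signal. All 49 were found among the 52636 genes of the deposited count table, and all 49 were among the 15512 genes with enough counts to test. Polyadenylated RNA of endothelial cells, isolated from liver by flow sorting, was sequenced in 3 libraries labelled with the genotype control and 4 libraries labelled c-Maf KO (knockout). The labels give no further allele, Cre driver, strain, age, sex or treatment for either group, and nothing states that each library came from its own animal. The p-values therefore speak of library-to-library spread, some of which may be technical. No interferon, virus or other inducer is named for any library, and the levels below are those of cells as sorted.

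Libraries held 24772716 to 32960007 counts. Levels are given as CPM, the read count relative to the library's total after scaling between libraries by trimmed mean of M-values (TMM), and a count of 0 allows up to 3 counts, or 0.0873 to 0.132 CPM. That limit covers counting error only. Maf itself stood at 1664, 2088 and 2147 CPM in control libraries 1 to 3. It stood at 28.9, 159, 125 and 37.7 CPM in KO libraries 1 to 4, so that 1.47%, 8.08%, 6.33% and 1.92% of the mean control level remained. The fall was 4.49 on the log2 scale (SE 0.576, adjusted p = 0.000347), and which part of the gene was deleted is not given in the sources used here. Endothelial identity was checked on 6 marker genes, which summed to 11160 to 12500 CPM in controls and 6306 to 9317 CPM in KO libraries, and 4 of the 6 were lower in the KO. All 6 markers of sinusoidal endothelium (Stab2, Stab1, Lyve1, Clec4g, Fcgr2b and Mrc1) were lower, with a median log2 fold change of -2.16. In bulk RNA, fewer cells of a type and less RNA per cell cannot be told apart.

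Interferons are secreted alarm proteins of the innate immune system. Type I interferons bind the receptor made of the IFNAR1 and IFNAR2 chains, interferon gamma binds that of IFNGR1 and IFNGR2, and both receptors signal through Janus kinases that phosphorylate STAT proteins. STAT proteins with IRF9 bind the interferon-stimulated response element (ISRE), and STAT dimers bind the gamma-activated site (GAS). The genes switched on include RNA and DNA sensors, enzymes that degrade viral RNA, membrane proteins that block viral entry or release, and inhibitors such as SOCS1 and USP18 that shut the pathway down. Liver sinusoidal endothelium lines vessels in which portal blood brings microbial products from the gut.

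The 49 genes did not move as one block. In the KO 11 were higher, 8 were lower and 30 did not pass the threshold, an adjusted p of 0.05 in edgeR's quasi-likelihood test over all 15512 genes. The share called was 38.8%, beside 45.2 percent of all genes tested. The genes that were higher made up 22.4% of the set against 23.0 percent of all genes, and those that were lower 16.3% against 22.2 percent. In 19 of the 49 genes (38.8%) no KO library fell inside the control range or the reverse, against 50.3 percent of all genes. The median log2 fold change was 0.0964 (quartiles -0.19 and 0.511), beside 0.0433 over all genes (quartiles -0.349 and 0.481). Of the set, 34 genes (69.4%) lay within 1.5-fold of the control level, against 62.8% of all genes. Past 2-fold and past the threshold were 6 genes (12.2%), against 16.5%: Oas2, Ifi27l2a, Isg15 and Irf1 above, Ifitm1 and Irf8 below.

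The balance of higher and lower genes depended on the scaling. Upper-quartile factors gave 16 higher and 7 lower, and plain library totals gave 23 higher and 5 lower. These scalings also moved the median log2 fold change of all genes tested from 0.0433 to 0.169 and 0.308. No gene past the threshold changed sign under any scaling.

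**Figure D1:**
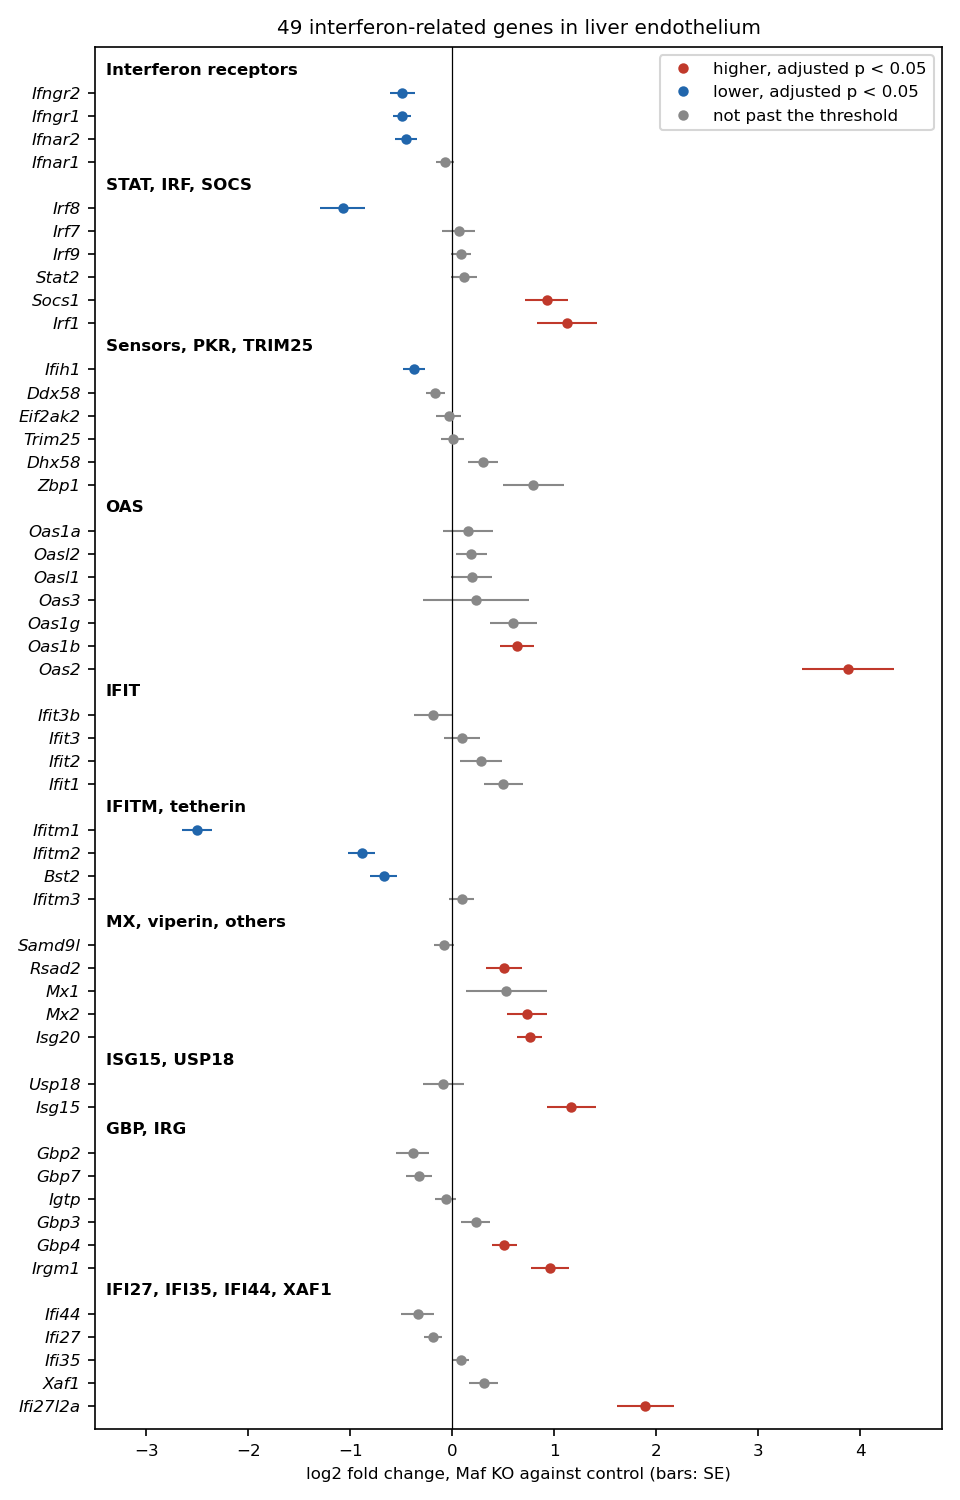
The log2 fold change of each of the 49 genes in Maf KO against control libraries (horizontal axis), grouped by family on the vertical axis; points are edgeR estimates, bars are standard errors, and colour marks genes past the adjusted p threshold. Most points lie near 0, Oas2 stands farthest to the right at 3.88 and Ifitm1 farthest to the left at -2.50.

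The 2 extremes of the set, both antiviral effectors, moved in opposite directions. Oas2 encodes a 2′-5′ oligoadenylate synthetase, an enzyme that makes a second messenger of antiviral defence when it meets double-stranded RNA. It stood at 4.19, 6.83 and 4.87 CPM in control libraries 1 to 3 and at 124, 39.1, 48.9 and 98.9 CPM in KO libraries 1 to 4. The lowest KO library was far above the highest control, and the KO libraries themselves spread more than 3-fold. The mean was 5.30 ± 1.37 CPM (SD, n = 3) in controls and 77.7 ± 40.4 CPM (SD, n = 4) in the KO, a 14.7-fold rise (log2 fold change 3.88, SE 0.449, adjusted p = 0.000197). Ifitm1 encodes a membrane protein that restricts fusion of enveloped viruses. It stood at 47.1, 45.6 and 57.4 CPM in controls and at 7.46, 10.2, 10.2 and 7.41 CPM in the KO. The KO libraries lay close together and far under every control. Ifitm1 fell by 2.50 on the log2 scale, or 5.67-fold (SE 0.151, adjusted p = 9.75e-06). Per kilobase of exon, Ifitm1 ranked 6 of the 49 genes in controls and 43 in the KO, while Oas2 ranked 47 in controls and 27 in the KO.

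**Figure D2:**
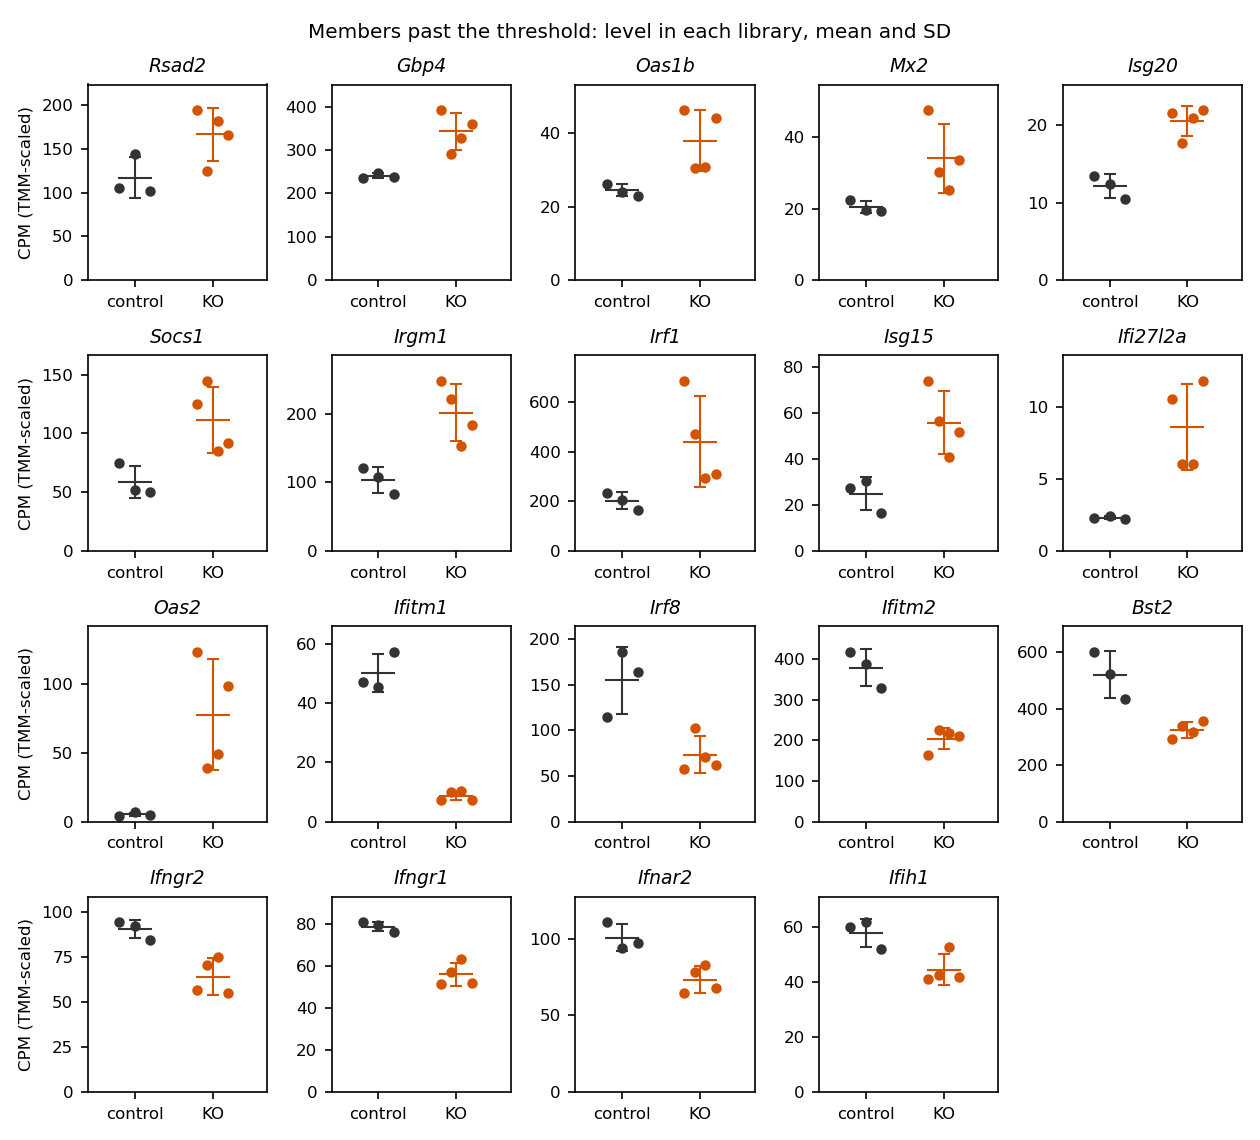
Level in CPM (TMM-scaled, vertical axis from 0) of the 19 genes past the threshold, 1 panel a gene, with each control library (n = 3) and each KO library (n = 4) as a point and the mean with SD as lines. The groups overlap in Rsad2 and Ifih1 and are apart in the other 17 panels.

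The promoters were read for the pathway's own response elements. RefSeq start sites on GRCm38.p6 gave windows of 250 bases before to 50 after the start for 39 of the 49 genes (46 windows). The first 30 transcribed bases of 34 of the 46 windows were found in a GENCODE transcript of the gene. The ISRE core was searched as GAAANNGAAA on both strands, the GAS core as TTCNNNGAA, which reads the same on both strands, and the MAF recognition core as TGCTGAC on both strands. Matches of different motifs may overlap. The ISRE core was present in 21 of the 39 genes (53.8%), against 3.99% of 27025 genes with a window of that length. The GAS core was present in 13 (33.3%) against 9.55%, and the MAF core in 3 (7.69%: Gbp7, Ifit1 and Irgm1) against 5.28%.

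The windows below are shown so that the ISRE core can be compared between genes of different calls: each carries it, in capitals, 5′ to 3′ on the gene's own strand, on GRCm38.p6. The first 4 belong to genes that were higher in the KO and the next 2 to genes that were lower. The rest belong to Ifit1, Ifit3 with Ifit3b, and Oas1a, which did not pass.
Isg15, minus strand, chr4:156200855-156200916: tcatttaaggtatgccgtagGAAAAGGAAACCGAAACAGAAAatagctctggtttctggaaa
Irgm1, minus strand, chr11:48871415-48871470: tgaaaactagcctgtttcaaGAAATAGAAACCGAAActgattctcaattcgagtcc
Socs1, minus strand, chr16:10785584-10785639: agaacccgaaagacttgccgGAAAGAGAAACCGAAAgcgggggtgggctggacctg
Rsad2, minus strand, chr12:26456543-26456592: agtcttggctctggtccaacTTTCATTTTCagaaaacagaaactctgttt
Bst2, minus strand, chr8:71537567-71537622: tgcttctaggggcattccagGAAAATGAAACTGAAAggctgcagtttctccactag
Ifitm2, minus strand, chr7:140955978-140956027: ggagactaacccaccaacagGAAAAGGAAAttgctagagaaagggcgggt
Ifit1, plus strand, chr19:34640765-34640833: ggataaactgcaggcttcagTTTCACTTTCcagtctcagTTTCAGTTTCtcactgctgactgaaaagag
Ifit3, plus strand, chr19:34583353-34583436, the same letters as in Ifit3b at chr19:34607749-34607832: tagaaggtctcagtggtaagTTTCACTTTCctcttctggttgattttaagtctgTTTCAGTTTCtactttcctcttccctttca
Oas1a, minus strand, chr5:120907510-120907565: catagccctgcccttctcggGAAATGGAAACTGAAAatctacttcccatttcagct

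Isg15 held 3 overlapping matches in 1 unbroken run, and Irgm1, Socs1, Bst2 and Oas1a held 2 each, arranged in the same way. Bst2, which was lower, and Socs1, which was higher, thus had the same spacing of GAAA repeats. The ISRE core was present in 4 of the 6 genes with a window that were higher, in 3 of the 8 that were lower and in 14 of the 25 that did not pass. A window was at hand for 6 of the 11 genes that were higher, for all 8 that were lower and for 25 of the 30 that did not pass. Among the 5 higher genes without a window are Oas2 and Ifi27l2a, the largest rises of the 49, together with Oas1b, Mx2 and Gbp4, so the values that follow leave them out. The median log2 fold change was 0.0964 over the 21 genes with a match (-0.89 to 1.17) and 0.03 over the 18 without (-2.50 to 1.12). The ranges overlap. A match is a description of the letters and not evidence that a factor binds there, and no match says only that these letters are not in the window.

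**Figure D3:**
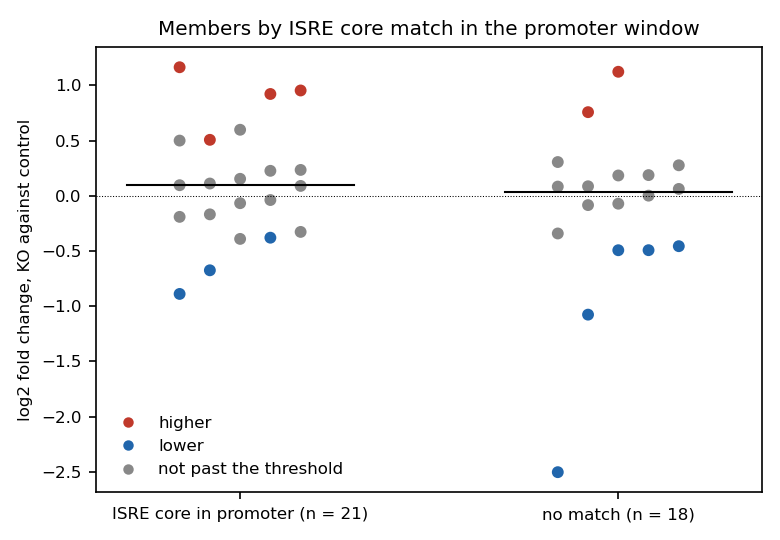
The log2 fold change (KO against control, vertical axis) of the 39 genes with a RefSeq promoter window, split by whether the window holds the ISRE core; each point is a gene, colour marks its call, horizontal lines are medians, and sideways position only keeps points apart. Higher and lower genes occur on both sides, with medians of 0.0964 and 0.03, and 5 of the 11 higher genes, Oas2 and Ifi27l2a among them, have no window and are not plotted.

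Of the 4 receptor genes 3 were lower in the KO, beside 22.2% of all genes, and all 3 falls were modest. Ifnar2, the high-affinity chain of the type I receptor, stood at 111, 93.7 and 97.3 CPM in controls and at 64.4, 78.0, 83.1 and 67.8 CPM in the KO, with no overlap. It fell by 0.46 on the log2 scale (SE 0.109, adjusted p = 0.00855), and the call was lost under library totals (adjusted p = 0.117) and without KO 1 and KO 4, or KO 1 and KO 2 (adjusted p = 0.0568 in both). Gm21970 shares 9.46% of the exon bases of Ifnar2 on the same strand. Ifnar1, the partner chain, spanned 95.0 to 104 CPM in controls and 87.0 to 104 CPM in the KO. Its groups overlapped, with a log2 fold change of -0.07 (SE 0.0897, adjusted p = 0.542). Ifngr1, the ligand-binding chain for interferon gamma, stood at 80.7, 79.3 and 76.1 CPM in controls and 51.5, 57.1, 63.5 and 51.8 CPM in the KO. Every KO library was lower than every control (log2 fold change -0.49, SE 0.0907, adjusted p = 0.00237). Ifngr2, the signalling chain, stood at 94.2, 91.9 and 84.7 CPM in controls and 56.5, 70.7, 74.7 and 54.8 CPM in the KO, again apart. Its log2 fold change came to -0.49 (SE 0.121, adjusted p = 0.00982), and the call was lost under library totals (adjusted p = 0.0763). For all 3 genes that fell, KO 2 and KO 3 were the 2 highest KO libraries, as they were for 27.8% of all genes tested and 64.6% of all genes lower in the KO. The same 2 libraries kept the most Maf, had the highest sums of 6 endothelial genes (7357 and 9317 CPM, against 6306 in KO 1 and 6556 in KO 4) and had the lowest sums of 8 hepatocyte genes. The part of these differences in the receptor levels was not tested.

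Among the transcription factors of the pathway, Stat2, Irf9 and Irf7 did not pass the threshold. Stat2, a signal carrier of the type I receptor, was at 197 ± 17.5 CPM (SD, n = 3) in controls and 213 ± 30.8 CPM (SD, n = 4) in the KO. Its libraries stood at 207, 207 and 177 CPM in controls and 256, 198, 185 and 213 CPM in the KO (log2 fold change 0.11, SE 0.128, adjusted p = 0.499). Irf9, the DNA-binding partner of STAT2, stood at 111, 114 and 103 CPM in controls and 130, 103, 112 and 120 CPM in the KO (log2 fold change 0.09, SE 0.0965, adjusted p = 0.487). Both pairs of groups overlapped. Irf7, the factor that amplifies interferon alpha production, stood at 111, 117 and 75.3 CPM in controls and 125, 95.1, 93.1 and 109 CPM in the KO. Control 3 was the lowest library and the groups overlapped (log2 fold change 0.06, SE 0.163, adjusted p = 0.775).

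Irf1, Socs1 and Irf8 did pass the threshold. Irf1, a transcriptional activator that interferon gamma induces, stood at 235, 205 and 166 CPM in controls and at 686, 472, 293 and 309 CPM in the KO. All KO libraries were above all controls, and KO 1 was more than 2-fold above KO 3. The rise was 2.18-fold (log2 fold change 1.12, SE 0.293, adjusted p = 0.0128). Socs1, the feedback inhibitor of Janus kinases, stood at 74.7, 52.0 and 49.8 CPM in controls and 125, 145, 84.7 and 92.0 CPM in the KO. The groups were apart by 84.7 against 74.7 CPM, and the gene rose 1.90-fold (log2 fold change 0.92, SE 0.214, adjusted p = 0.00743). Without KO 1 and KO 2 together, the libraries highest in the dissociation stress genes described below, the log2 fold change was 0.58 for Irf1 (adjusted p = 0.0326) and 0.59 for Socs1 (adjusted p = 0.0452). Irf8, a factor best known from macrophages and dendritic cells, stood at 114, 186 and 164 CPM in controls and 57.3, 103, 71.1 and 62.4 CPM in the KO. The highest KO library was below the lowest control, by 103 against 114 CPM. Irf8 fell 2.11-fold (log2 fold change -1.08, SE 0.219, adjusted p = 0.00392).

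Markers of macrophages were read beside Irf8. The 10 Kupffer cell and macrophage genes summed to 88.8, 218 and 139 CPM in control libraries 1 to 3, the same order as Irf8. In KO libraries 1 to 4 they summed to 72.8, 161, 58.95 and 34.5 CPM, where KO 2 was highest for both and the other 3 libraries were in a different order. Only C1qb of the 10 was lower past the threshold, and the summed level of the groups overlapped. Of the 7 dendritic cell genes Siglech, Flt3, Xcr1, Klk1 and Cd209a were at or near 0 in both groups. Their means were 0.104 CPM or less, while Clec9a and Zbtb46 were well above that. Clec9a, a receptor of conventional dendritic cells, went from 98.9 CPM in controls to 68.6 CPM in the KO. Every KO library was below every control (log2 fold change -0.53, adjusted p = 0.00595). KO libraries 1 to 4 stood at 67.45, 63.0, 69.1 and 74.7 CPM, so KO 2, the highest for Irf8, was the lowest for Clec9a. Zbtb46, at 342 CPM in controls and 281 CPM in the KO, missed the threshold with a log2 fold change of -0.28 (adjusted p = 0.065). The part of macrophages or of dendritic cells in the level of Irf8 was not tested.

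**Figure D4:**
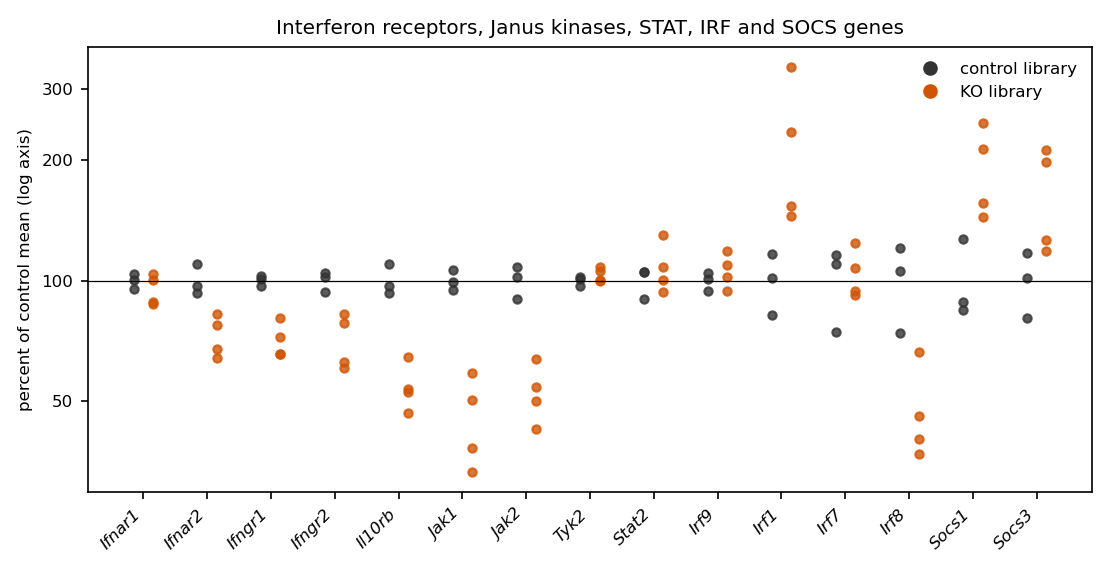
Percent of the control mean (vertical axis, log scale) in each control library (n = 3) and KO library (n = 4) for interferon receptors, Janus kinases and the STAT, IRF and SOCS genes. Ifnar2, Ifngr1, Ifngr2, Jak1, Jak2, Il10rb and Irf8 lie under the controls in every KO library, and Irf1, Socs1 and Socs3 lie above.

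Of the 6 sensors and their effectors 1 (16.7%) passed the threshold, beside 45.2% of all genes. Ifih1 encodes MDA5, the sensor of long double-stranded RNA. It stood at 60.2, 61.9 and 52.3 CPM in controls and 41.2, 42.8, 52.9 and 41.8 CPM in the KO, and KO 3 reached into the control range. The log2 fold change came to -0.38 (SE 0.109, adjusted p = 0.0201), and the call was lost in 9 of 19 alternatives, among them upper-quartile factors and library totals and the removal of Control 1, Control 2, KO 2 or KO 4. Trim25, the ubiquitin ligase that helps activate RIG-I, had the highest mean of the 6. It stood at 194, 222 and 200 CPM in controls and 244, 190, 194 and 195 CPM in the KO, which overlap (log2 fold change 0.00, SE 0.115, adjusted p = 0.992). The other 4 did not pass: Ddx58, which encodes RIG-I (-0.17), the RIG-I regulator Dhx58 (0.30), Eif2ak2, which encodes the kinase PKR (-0.04), and the Z-nucleic acid sensor Zbp1 (0.79, adjusted p = 0.0553). Zbp1 stood at 7.79, 8.08 and 3.38 CPM in controls and 13.3, 7.88, 11.1 and 12.3 CPM in the KO, where KO 2 lay inside the control range.

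In the OAS family 2 of 7 genes (28.6%) were higher, near the 23.0% of all genes, and none was lower. Beside Oas2, the other was Oas1b, whose intact product is known for resistance to flaviviruses in mice. The annotation lists Oas1b as a polymorphic pseudogene. No strain is given, so whether these mice encode an intact product is not known. Oas1b stood at 26.2, 24.1 and 22.9 CPM in controls and 46.2, 30.6, 30.8 and 43.9 CPM in the KO, without overlap. The rise was 1.55-fold (log2 fold change 0.63, SE 0.164, adjusted p = 0.0125). Oasl2, an OAS-like gene, had the highest mean of the family. It stood at 130.0, 139 and 112 CPM in controls and 166, 108, 141 and 163 CPM in the KO, with overlap (log2 fold change 0.18, SE 0.154, adjusted p = 0.349). Oas1a, Oas1g, Oas3 and Oasl1 had log2 fold changes of 0.15, 0.60, 0.23 and 0.19 and did not pass. Oas1a and Oas1g are near-identical copies: 57.6% of the 50-base stretches of Oas1a also occur in Oas1g, so how their reads were split is uncertain. Oas2 shared none of its stretches with another gene. Oas3, which lies next to Oas2 on chromosome 5 (120753098 to 120777661 against 120730333 to 120749853 for Oas2, both on the minus strand of GRCm38), was at 0.711 ± 0.458 CPM (SD, n = 3) in controls and 0.832 ± 0.363 CPM (SD, n = 4) in the KO. The groups of Oas3 overlapped (adjusted p = 0.735).

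None of the 4 IFIT genes passed the threshold, beside 45.2% of all genes that did. These genes encode RNA-binding proteins that block translation of viral messages and are widely used as readouts of type I interferon. Ifit2, the most abundant by CPM, stood at 173, 177 and 123 CPM in controls and 267, 178, 154 and 166 CPM in the KO. KO 1 stood above the rest and the groups overlapped (log2 fold change 0.28, SE 0.206, adjusted p = 0.295). Ifit1 stood at 19.9, 21.7 and 13.1 CPM in controls and 32.5, 23.2, 24.2 and 23.6 CPM in the KO. Its groups did not overlap, yet it missed the threshold (log2 fold change 0.50, adjusted p = 0.0545). It was past it in 7 of 19 alternatives, among them DESeq2 (adjusted p = 0.0415), the lane as covariate (adjusted p = 0.0351) and the replicate block (log2 fold change 0.56, adjusted p = 0.0423). Ifit3 and Ifit3b had log2 fold changes of 0.10 (adjusted p = 0.681) and -0.19 (adjusted p = 0.424). In all 4 genes Control 3 was the lowest control. Ifit3 shares 51.2% of its 50-base stretches with Ifit3b, and their printed promoter stretches are the same letter by letter, so the split of reads between them is uncertain.

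Of the 4 membrane-acting restriction factors Ifitm1, Ifitm2, Ifitm3 and Bst2, 3 were lower, beside 22.2% of all genes, and none was higher. Per kilobase of exon, Ifitm3, Ifitm2 and Bst2 held the top 3 places of the 49 genes in controls, at 728, 579 and 576 CPM per kilobase. Ifitm2 stood at 419, 389 and 329 CPM in controls and 165, 225, 219 and 211 CPM in the KO. All KO libraries were below all controls, and the gene fell 1.85-fold (log2 fold change -0.89, SE 0.134, adjusted p = 0.000843). Its value is uncertain, since Gm45717 covers 40.9% of its exon bases on the same strand and 48.5% of its 50-base stretches occur in another gene. Bst2 encodes tetherin, which holds budding virions on the cell surface. It stood at 602, 522 and 435 CPM in controls and 292, 337, 316 and 358 CPM in the KO, apart again. Bst2 fell 1.60-fold (log2 fold change -0.67, SE 0.132, adjusted p = 0.00324), and none of its stretches occur in another gene. Ifitm3, the family member best known for restricting influenza virus, stood at 527, 528 and 427 CPM in controls and 489, 542, 489 and 582 CPM in the KO. Its groups overlapped (log2 fold change 0.09, SE 0.123, adjusted p = 0.575). Ifitm1, Ifitm2 and Ifitm3 lie within 1 cluster on chromosome 7, with Ifitm2 from 140954837 to 140955987, Ifitm1 from 140967221 to 140969825 and Ifitm3 from 141009586 to 141010770.

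Of the 5 MX, viperin and related effectors 3 (60.0%) were higher, beside 23.0% of all genes. Isg20, an exonuclease that degrades RNA, stood at 13.5, 12.5 and 10.5 CPM in controls and 21.7, 17.7, 21.01 and 21.98 CPM in the KO, without overlap. The rise was 1.69-fold (log2 fold change 0.76, SE 0.124, adjusted p = 0.00127). Mx2, a gene of the dynamin-like GTPases, is also listed as a polymorphic pseudogene, with the same uncertainty about its product. It stood at 22.3, 19.7 and 19.5 CPM in controls and 47.6, 30.2, 25.2 and 33.6 CPM in the KO. The groups were apart and the log2 fold change came to 0.74 (SE 0.196, adjusted p = 0.0141), a call that was lost without Control 2 (adjusted p = 0.0549). Rsad2, which encodes viperin and was the most abundant of the 5 by CPM, stood at 106, 144 and 102 CPM in controls and 195, 125, 182 and 166 CPM in the KO. KO 2 lay below Control 2, so the groups overlapped. The log2 fold change came to 0.51 (SE 0.174, adjusted p = 0.0399), and 9 of 19 alternatives lost the call, among them the removal of any 1 of Control 1, Control 3, KO 1, KO 3 and KO 4. Mx1 was at 1.44 ± 0.883 CPM (SD, n = 3) in controls and 2.07 ± 0.628 CPM (SD, n = 4) in the KO. Mx1 and Samd9l did not pass, with log2 fold changes of 0.53 and -0.08.

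Isg15 and Usp18 act on the same modification, ISG15 being the ubiquitin-like tag and USP18 the protease that removes it and also dampens the receptor. Isg15 stood at 27.3, 30.5 and 16.7 CPM in controls and 74.0, 56.4, 40.8 and 51.8 CPM in the KO. Every KO library was above every control, and the gene rose 2.24-fold (log2 fold change 1.17, SE 0.240, adjusted p = 0.00415). Usp18 stood at 23.1, 26.4 and 19.9 CPM in controls and 28.8, 14.8, 20.9 and 22.3 CPM in the KO, which overlap. Its log2 fold change came to -0.09 (SE 0.201, adjusted p = 0.731).

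The guanylate-binding proteins (GBP) and immunity-related GTPases are GTPases, known from responses to interferon gamma, that attack vacuoles holding microbes. Of 6 such genes 2 (33.3%) were higher, beside 23.0% of all genes, and none was lower. Irgm1, a regulator of that system, stood at 121, 108 and 83.6 CPM in controls and 248, 222, 153 and 184 CPM in the KO, without overlap. It rose 1.94-fold (log2 fold change 0.95, SE 0.185, adjusted p = 0.00306). Gbp4, the most abundant of the 6 by CPM, stood at 236, 247 and 238 CPM in controls and 392.2, 291, 328 and 359.9 CPM in the KO, also apart. The rise was 1.43-fold (log2 fold change 0.51, SE 0.118, adjusted p = 0.00729). Gbp2, Gbp3, Gbp7 and Igtp did not pass, with log2 fold changes of -0.39 (adjusted p = 0.0723), 0.23, -0.33 (adjusted p = 0.063) and -0.07. Gbp7 and Igtp share 12.7% and 11.8% of their 50-base stretches with other genes.

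The last 5 genes, Ifi27, Ifi27l2a, Ifi35, Ifi44 and Xaf1, are interferon-induced genes of varied function, and 1 of them passed. Ifi27l2a stood at 2.29, 2.46 and 2.19 CPM in controls and 10.5, 6.06, 6.05 and 11.8 CPM in the KO. The controls were nearly equal, and the lowest KO library was more than 2-fold above them. The rise was 3.71-fold (log2 fold change 1.89, SE 0.282, adjusted p = 0.000779). Its relative Ifi27, the most abundant of the 5 by CPM, stood at 154, 138 and 135 CPM in controls and 130, 120, 118 and 130 CPM in the KO. The groups did not overlap, but the log2 fold change of -0.19 did not pass (SE 0.0866, adjusted p = 0.097). Ifi35, Ifi44 and Xaf1 did not pass either, at 0.08, -0.34 and 0.31. The antisense gene Gm11626 covers 16.8% of the exon bases of Ifi35, and strand use in the counting is not given in the sources used here.

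Outside the 49 genes, 144 other genes of the pathway were listed by role, of which 143 had a row and 110 were tested. Of these 21 were higher, 37 were lower and 52 did not pass, and their median log2 fold change was -0.06. The share called was 52.7% (19.1% higher, 33.6% lower), beside 45.2% of all genes tested (23.0% higher, 22.2% lower). Among 21 further receptor chains, kinases, STATs and regulators 2 were higher (9.52%) and 9 were lower (42.9%). Jak1, the kinase shared by all interferon receptors, stood at 1826, 2046 and 1912 CPM in controls and 644, 972, 1133 and 740 CPM in the KO. Every KO library was below every control, and Jak1 fell 2.21-fold (log2 fold change -1.14, SE 0.194, adjusted p = 0.00155). Jak2, which serves the interferon gamma receptor, went from 157 ± 14.2 CPM (SD, n = 3) to 83.0 ± 13.9 CPM (SD, n = 4) (log2 fold change -0.92, SE 0.134, adjusted p = 0.000666). Tyk2, the kinase of IFNAR1, stood at 111, 115 and 117 CPM in controls and 121, 115, 114 and 124 CPM in the KO, which overlap (log2 fold change 0.05, SE 0.0751, adjusted p = 0.613). Il10rb, a receptor chain for interferon lambda and interleukin 10, fell 1.84-fold (log2 fold change -0.88, adjusted p = 0.000379), and the phosphatase gene Ptpn2 rose 1.45-fold (log2 fold change 0.54, adjusted p = 0.0054).

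Of the 20 interferon ligand genes none had enough counts to test, and 17 had 0 counts in all 7 libraries. Ifnb1, Ifnk and Ifng had 3 counts or fewer in any library, and the ligands together summed to at most 0.125 CPM in any library, near the level of 3 counts. A difference in ligand transcripts between the groups was not detectable at this depth.

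Among 21 other genes of nucleic acid sensing 6 were higher (28.6%) and 9 were lower (42.9%), beside 23.0% and 22.2% of all genes. Cgas, the DNA sensor that makes cyclic GMP-AMP, stood at 6.37, 5.66 and 5.395 CPM in controls and 22.04, 16.5, 12.9 and 16.6 CPM in the KO. The groups were far apart, and Cgas rose 2.92-fold (log2 fold change 1.55, SE 0.185, adjusted p = 0.000238). Mavs, the adaptor that RIG-I and MDA5 share, fell from 62.9 ± 3.76 CPM (SD, n = 3) to 35.7 ± 3.48 CPM (SD, n = 4) (log2 fold change -0.82, adjusted p = 0.000197). Samhd1, which depletes nucleotides and thereby restricts retroviruses, fell 1.54-fold (log2 fold change -0.62, adjusted p = 0.000475).

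Of 68 further interferon-stimulated genes that were tested, 13 were higher (19.1%), 19 were lower (27.9%) and 36 did not pass, beside the same 23.0% and 22.2%. Slfn9, a Schlafen family gene, stood at 6.95, 7.16 and 7.63 CPM in controls and 36.5, 32.1, 35.7 and 36.3 CPM in the KO. Both groups were tight, and the rise was 4.85-fold (log2 fold change 2.28, SE 0.0963, adjusted p = 3.58e-06). Ifi204, a gene of the DNA-binding PYHIN family, stood at 171, 182 and 175 CPM in controls and 57.6, 61.1, 66.5 and 58.1 CPM in the KO (log2 fold change -1.53, SE 0.0816, adjusted p = 6.31e-06). Ifitm10, a relative of the IFITM genes, stood at 60.3, 61.8 and 49.5 CPM in controls and 1.77, 6.02, 5.59 and 3.69 CPM in the KO. It fell by 3.74 on the log2 scale (SE 0.321, adjusted p = 4.4e-05). Tmem140 fell 1.82-fold (log2 fold change -0.87, adjusted p = 5.58e-05).

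Across libraries the 49 genes shared some order within groups. As the median percent of each gene's control mean, control libraries 1 to 3 stood at 104%, 107% and 90.0%, and KO libraries 1 to 4 at 125%, 91.4%, 101% and 110%. Control 3 was the lowest control in 37 of the 49 genes, KO 1 the highest KO library in 28, and KO 2 the lowest in 27. For Control 3 no such count over all genes is given. The orders with KO 1 highest and KO 2 lowest can be set beside all genes tested. The order KO 1, KO 4, KO 3, KO 2 was had by 28.6% of the 49, against 5.93% of all genes tested. The order KO 1, KO 3, KO 4, KO 2 was had by 12.2%, against 2.55%. The median coefficient of variation was 12.2% in controls and 17.2% in the KO, beside 10.5% and 13.9% over all genes tested. Control 3 and KO 3 were sequenced on lane 4 and the other 5 libraries on lane 5. Within lane 5 alone 10 of the 49 genes were higher and 11 were lower, and with the lane as a covariate 12 were higher and 10 lower.

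**Figure D5:**
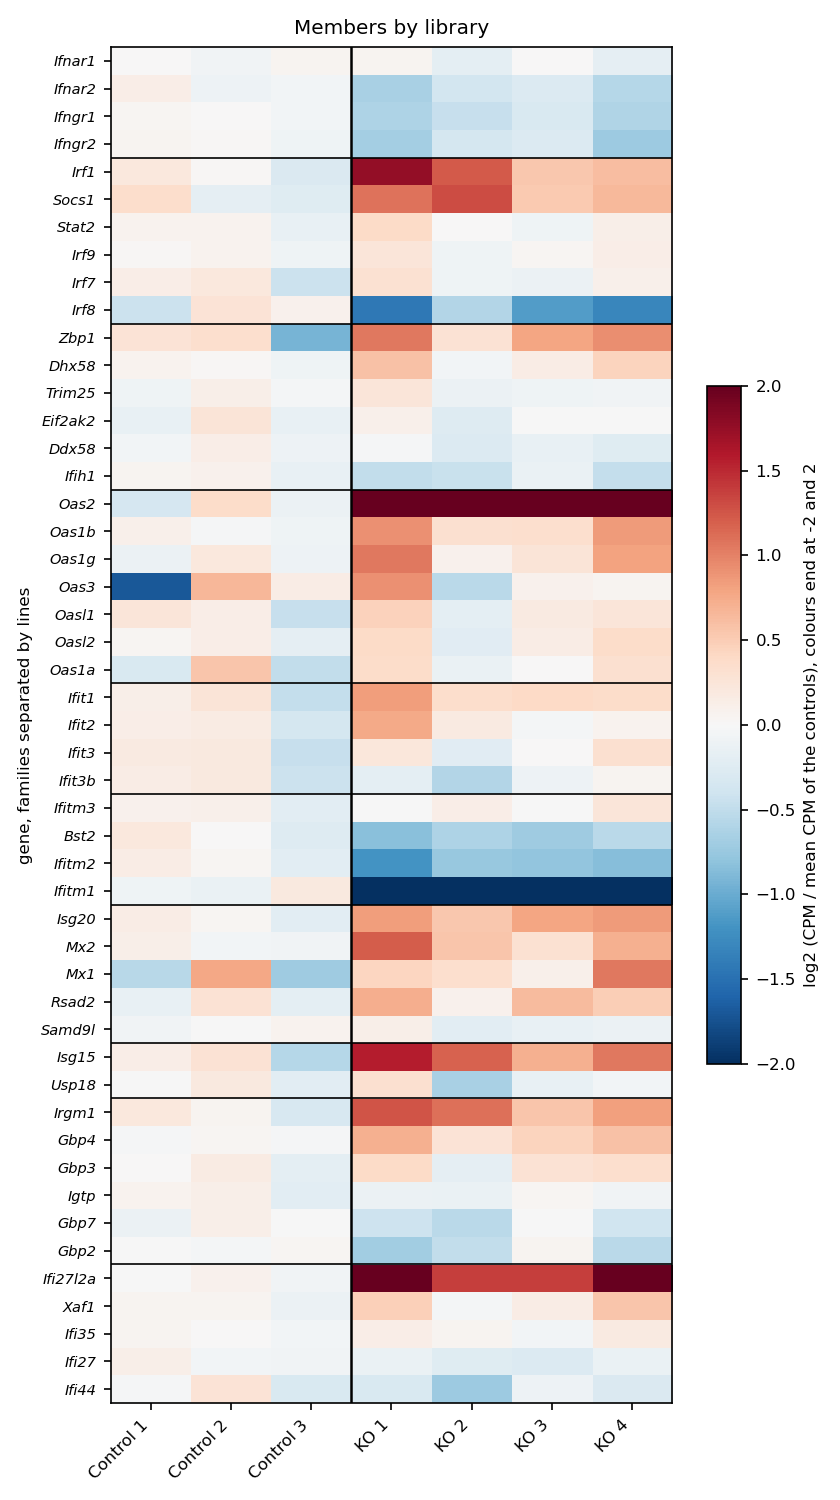
Heat map of the 49 genes (rows, families separated by lines) in the 7 libraries (columns), coloured by the log2 ratio of CPM to the mean of the controls, with colours ending at -2 and 2. Oas2 and Ifi27l2a are red and Ifitm1 is blue in all 4 KO libraries, while most other rows are pale, and KO 1 is the highest KO library in 28 of the 49 rows.

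Other measures moved with these library differences. The summed CPM of 8 hepatocyte genes was 271 to 306 in controls and 1402, 342, 422 and 673 in KO libraries 1 to 4, and 6 of the 8 were higher in the KO. That order of KO libraries (KO 1, KO 4, KO 3, KO 2) was had by 14 of the 49 genes (28.6%), of which Oas2, Oas1b and Gbp4 were higher and 11 did not pass, against 5.93% of all genes tested and 9.21% of all genes higher in the KO. It is also the reverse order of the Maf that remained. With KO 1 and KO 4 left out together, the log2 fold change of Oas2 was 3.06 (adjusted p = 0.000111), against 3.88 in all 7 libraries. That of Oas1b was 0.33 (adjusted p = 0.0438), against 0.63, and that of Gbp4 was 0.37 (adjusted p = 0.0327), against 0.51. KO 2 and KO 3, the KO libraries kept, also had hepatocyte sums above every control. The summed CPM of 10 dissociation stress genes was 6887, 6062 and 5057 in controls and 16770, 13660, 8011 and 10250 in the KO, and 5 of the 10 were higher. Irf1, Isg15, Irgm1 and 1 gene that did not pass had that order (KO 1, KO 2, KO 4, KO 3), which makes 8.16% of the 49, against 6.21% of all genes tested and 10.8% of those higher in the KO. Isg15 and Irgm1 had log2 fold changes of 0.90 (adjusted p = 0.0245) and 0.69 (adjusted p = 0.0196) when KO 1 and KO 2 were left out together. The part of hepatocyte RNA or of dissociation stress in these genes was not tested. Of other cells' markers, 4 of 5 platelet and megakaryocyte genes were higher (16.5 to 20.4 CPM in sum in controls, 29.0 to 42.5 CPM in the KO). Of 8 stellate cell and fibroblast genes 4 were lower. None of the 5 erythroid genes tested passed, though their log2 fold changes were 1.46 to 1.92. The erythroid genes summed to 10.1, 3.91 and 2.5 CPM in controls and to 39.9, 7.33, 5.76 and 21.6 CPM in KO libraries 1 to 4. Only 3 of 8 monocyte and neutrophil genes could be tested, and none passed. T and NK cell genes summed to at most 0.837 CPM in any library and none of the 7 could be tested, and plasmacytoid cells' Siglech was at 0.0884 CPM in controls and 0.104 CPM in the KO.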

How the data were processed

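Raw read counts per Ensembl gene were deposited by the authors without scaling. The submitters' processing notes name FastQC 0.11.5, STAR 2.7.6a and build GRCm38. Not given in the sources used here are the counting tool, annotation and strand setting, and the labels' protocols name both an unstranded and a stranded library kit, so overlapping and antisense genes are uncertain. Symbols and coordinates come from GENCODE mouse release M21 on GRCm38, promoter windows from RefSeq on GRCm38.p6.

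Counts were analysed in R 4.3.3. Genes passed filterByExpr of edgeR 4.0.16 (minimum 10 counts, total 15) and were scaled by TMM (factors 0.8767 to 0.9211 in controls, 1.043 to 1.135 in KO libraries). KO was tested against control with edgeR's quasi-likelihood F-test without covariates, with Benjamini-Hochberg adjustment over 15512 genes and a threshold of 0.05. SE is the absolute log2 fold change over the square root of F. CPM values are TMM-scaled. Libraries of 1 group all differed beyond counting noise (chi-square over degrees of freedom 14.5 to 107). Copies were sought as 50-base stretches of transcripts found in another gene. The fit was tested on simulated data.

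The 49 genes, the other lists and the tests were chosen with earlier results of these data known, so no p-value over a list is given. Named in full were the receptors, the STAT, IRF and SOCS genes, and in each other family up to 3 called genes with the largest change plus the most abundant gene. Each pathway list gave up to 4 called genes with the smallest p, beside Jak1, Jak2 and Tyk2. Some genes taken by this rule are not reported here. Alternatives were other scalings, filters, DESeq2 1.42.0, limma-voom 3.58.1, the lane, a replicate block and left-out libraries. Leaving out KO 1 and KO 2 together was added after seeing the data. No comparison of protein sequences was made.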

Additional observations from a re-analysis of the deposited data

Results flagged for a closer look

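In 3 of the 49 genes 1 KO library stood apart from the other 3, by a gap larger than Dixon's 95% critical value for 4 samples. Chance flags about 1 in 20 such groups, and 49 were examined. Ifih1 was at 52.9 CPM in KO 3 and at 41.2 to 42.8 CPM in the other KO libraries (gap over range 0.863). Trim25 was at 244 CPM in KO 1 and at 190.0 to 195 CPM in the others (0.907). Ifit1 was at 32.5 CPM in KO 1 and at 23.2 to 24.1 CPM in the others (0.898).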

How the results depend on the processing

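Of the 11 genes that were higher, 9 kept their call in all 19 alternatives, and of the 8 that were lower, 5 did. The calls of Rsad2, Mx2, Ifih1, Ifnar2 and Ifngr2 were lost in some, and no called gene changed sign in any. Library totals gave 23 higher and 5 lower genes of the 49 at a median log2 fold change of 0.372, 39 higher and 17 lower other pathway genes, and 6373 higher and 1976 lower genes among all tested. Lane 5 alone gave 11 higher other pathway genes. With KO 1 and KO 4 left out, 4654 genes of all tested were called, 2234 of them higher, and 11 other pathway genes were higher. Without KO 1 and KO 2, an alternative added after seeing the data, 4657 genes of all tested were called, 2313 of them higher, and 20 other pathway genes were lower. Leaving out 1 library at a time gave 13 (without Control 3) to 24 higher and 24 (without Control 2) to 42 lower other pathway genes, against 21 and 37 in all 7 libraries. Fits that leave libraries out have fewer samples, and otherwise the cause was not tested.

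Of the 30 genes that did not pass, 18 were past the threshold in some alternative, in 46 gene and alternative combinations: Zbp1 and Ifit1 in 7 each, Oas1g in 6, Gbp2 and Gbp7 in 4, Dhx58 and Xaf1 in 3, Gbp3 in 2 and 10 others in 1. Also 18 changed sign in some alternative, and none was past the threshold where it did. Under upper-quartile factors the log2 fold changes became 0.0549 (Ifnar1), 0.0921 (Eif2ak2), 0.0444 (Samd9l), 0.0411 (Usp18) and 0.0606 (Igtp). Library totals gave 0.193 (Ifnar1), 0.1 (Ddx58), 0.233 (Eif2ak2), 0.084 (Ifit3b), 0.183 (Samd9l), 0.182 (Usp18), 0.201 (Igtp) and 0.075 (Ifi27). Trim25 was at -0.0218 with DESeq2 size factors, -0.00769 with the 1 CPM filter, -0.0219 with DESeq2, -0.00155 with limma-voom and -0.00606 with the lane as covariate. Lane 5 alone gave -0.098 (Irf7), -0.0343 (Trim25), -0.0374 (Oas1a), -0.035 (Oasl1), -0.101 (Ifit3) and -0.017 (Ifitm3). Without KO 1 and KO 4 the values were -0.0407 (Stat2), -0.0997 (Irf7), -0.0229 (Irf9), -0.0968 (Trim25), -0.0552 (Oas1a), -0.163 (Oas3), -0.0273 (Oasl2) and -0.101 (Ifit3). With KO 1 and KO 2 left out they were -0.000957 (Irf7) and -0.0781 (Trim25). Leaving out 1 library at a time gave -0.113 to 0.106 (Eif2ak2), -0.0934 to 0.198 (Ifit3), -0.0107 to 0.136 (Ifitm3), -0.116 to 0.173 (Irf7), -0.0454 to 0.541 (Oas1a), -0.214 to 0.736 (Oas3), -0.0926 to 0.0576 (Trim25) and -0.259 to 0.0478 (Usp18).

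The samples were treated as unpaired. Deviations of same-numbered libraries correlated at -0.01, 0.16 and 0.07, and those of differently numbered libraries at -0.18 to 0.08. So few correlations cannot exclude a pairing. With the replicate block 11 of the 49 genes were higher and 7 lower, 24 other pathway genes were lower, and 5169 genes of all tested were called. Ifih1 (adjusted p = 0.0875) and Rsad2 (adjusted p = 0.12) lost their calls under the block, and Ifit1 gained one (log2 fold change 0.56, adjusted p = 0.0423). The 20 interferon ligand genes had too few counts for a test.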
